A study of Saccharomyces cerevisiae with 6 samples.

Results

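Most proteins of mitochondria are made in the cytosol and carried across or into the mitochondrial membranes by a set of translocases. The genes described here encode that machinery in Saccharomyces cerevisiae. They were chosen by gene symbol from the TOM, SAM, TIM, PAM and MIA complexes and the processing peptidases, not as a full list. They include the genes of the insertion factor Mim1p and the insertase Oxa1p. Their values were not used for this choice, although earlier results of these data were known. All 38 symbols were found among the 7127 features of the count table, and all 38 passed the filter on low counts, as did 6755 features in all.

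Poly(A)-selected RNA was sequenced from 3 libraries of aged cells and 3 libraries of young cells. All came from the prototrophic WT strain CGY4.51, whose genotype is given as MAT@, and were grown in synthetic complete (SC) medium with glucose. Aged cells were bead-labelled and kept for 24 h in ministat aging devices, which retain mother cells while their daughters are washed away, in medium that per the study's methods also held methyl-alpha-D-mannopyranoside. Young cells were taken from exponential cultures. Age and the culture system cannot be told apart in this design, the share of daughters among the aged cells is not given for these samples, and in bulk RNA fewer cells with a transcript and less of it per cell cannot be told apart. The labels mark replicates 1 to 3 of each group as biological replicates and as batches 1 to 3. The libraries held between 29230292 and 41650202 estimated counts.

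A precursor protein first meets receptors of the TOM complex on the outer membrane and passes through the Tom40p channel. From there the routes part. Proteins with a cleavable presequence are drawn by the membrane potential through the TIM23 complex and pulled into the matrix by the PAM motor, where peptidases remove the presequence. Metabolite carriers are escorted by the small TIM chaperones of the intermembrane space to the TIM22 complex, beta-barrel proteins go to the SAM complex, and small cysteine-rich proteins are trapped by the disulfide relay of Mia40p and Erv1p. In the study, the reporter of mitochondrial membrane potential (MMP) depends on the presequence route, and its MMP-insensitive component is a tag on Tim50p, the TIM23 receptor. The strain label of these libraries lists no reporter allele.

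Many mRNAs of yeast mitochondrial proteins carry the letters TGTANATA near their 3′ end, which the RNA-binding protein Puf3p is known to bind. These letters were looked for on the coding strand within 150 bases after the stop codon of each gene, in the RefSeq R64 genome. They stood after 19 of the 38 import genes (50%) and after 754 of 6008 coding genes of the table (12.5%). They stood after 5 of 5 genes of small TIM chaperones, 2 of 2 of the disulfide relay, 3 of 4 of the TOM pore and small subunits (TOM5, TOM6 and TOM7, not TOM40), 3 of 4 of the PAM motor and 2 of 3 of the TIM22 complex, whereas 0 of 5 genes of outer membrane sorting and insertion had them. The first matches of the small TIM, small TOM and relay genes, and those of PAM18, which fell in aged cells, and TOM20, which rose, are printed 5′ to 3′ with the motif in capitals, with positions in R64.
TOM5, chrXVI:797825-797854, + strand: agagaaagacgTGTAAATAttttttaaaaa
TOM6, chrXV:414066-414095, + strand: tttcacttaccTGTATATAtattggttttt
TOM7, chrXIV:493631-493660, + strand: aaaaattgacaTGTACATAaagtatatata
TIM8, chrX:677276-677305, + strand: cttaatatatcTGTAAATAagcaaatgaat
TIM9, chrV:117521-117550, + strand: catttttagcaTGTAAATAtaaagagaaac
TIM10, chrVIII:115498-115527, − strand: gattcatatccTGTATATAcaagtaacatt
TIM12, chrII:427135-427154, − strand: cTGTAAATAtgaggactgtc
TIM13, chrVII:858638-858667, + strand: gtactcgtactTGTATATAagattcaaagg
MIA40, chrXI:77077-77106, + strand: aggatgatacaTGTAAATAcagtaatatta
ERV1, chrVII:544258-544287, + strand: acagattctcgTGTATATAacactccaatc
PAM18, chrXII:165416-165445, − strand: tagataagtctTGTAAATAacacggaaagc
TOM20, chrVII:644633-644662, + strand: ttcttttactcTGTATATAgccctatataa
The matches lay between 2 bases (TIM12) and 143 bases (PAM18) after the stop codon. TIM12 is shown from its stop codon on, and TIM12 and TOM6 each had 2 matches.

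The comparison of aged with young cells asked how the transcripts of the import machinery differed after 24 h in the device. The chaperones of the intermembrane space, the small TOM subunits Tom6p and Tom7p, the J-protein of the motor and the sulfhydryl oxidase of the relay had less mRNA in aged cells, to between 0.41-fold and 0.64-fold of young cells. The channel genes TOM40, TIM22 and TIM23 were not past the threshold, although an offset on GC content put each of them past it as lower and total counts only put each past it as higher. TOM20, TIM17, MAS2 and SOM1 rose, TIM17 and SOM1 without a call under the offset on GC content. In edgeR's quasi-likelihood test, with p-values adjusted over all tested features by Benjamini-Hochberg, 19 of the 38 import genes (50%) were lower and 6 (15.8%) were higher in aged cells, at a threshold of 0.05 on the adjusted p-value. Over all 6755 tested features, 30.8% were lower and 32.7% were higher, and 63.5% changed in either direction. Changes of at least 0.5 on the log2 scale were called for 15 of the 38 import genes and for 34.8% of all features. The median log2 fold change was −0.19 over the import genes and 0.025 over all features. The median in batches 1, 2 and 3 was −0.17, −0.12 and −0.16, against 0.014, 0.039 and 0.020 over all features.

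Levels here are in CPM, counts relative to library size, after scaling each library by the trimmed mean of M-values (TMM), and fold changes are relative to the bulk of genes. With libraries scaled to total counts only, the median of all features was 0.54, 4639 features were higher and 562 lower in place of 2207 and 2081, and each import gene was 0.50 to 0.53 higher on the log2 scale than with TMM. Of the 19 lower genes, 12 then stayed below 0 and 7 did not, namely TOM22, TOM70, TIM21, PAM16, MIA40, MAS1 and OXA1, so their falls are stated relative to other genes. MIA40, MAS1 and OXA1 were then past the threshold as higher (edgeR adjusted p = 0.0137, 0.0257 and 0.00504). All 3 aged libraries lay below all 3 young libraries for 22 import genes and above them for 7, against 33.8% and 36.3% of all features. In either direction the groups did not overlap for 29 of 38 import genes and 70.1% of all features. The 25 genes past the threshold were all among these 29, so their having the same sign in each batch follows from that and adds nothing to it.

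**Figure D1:**
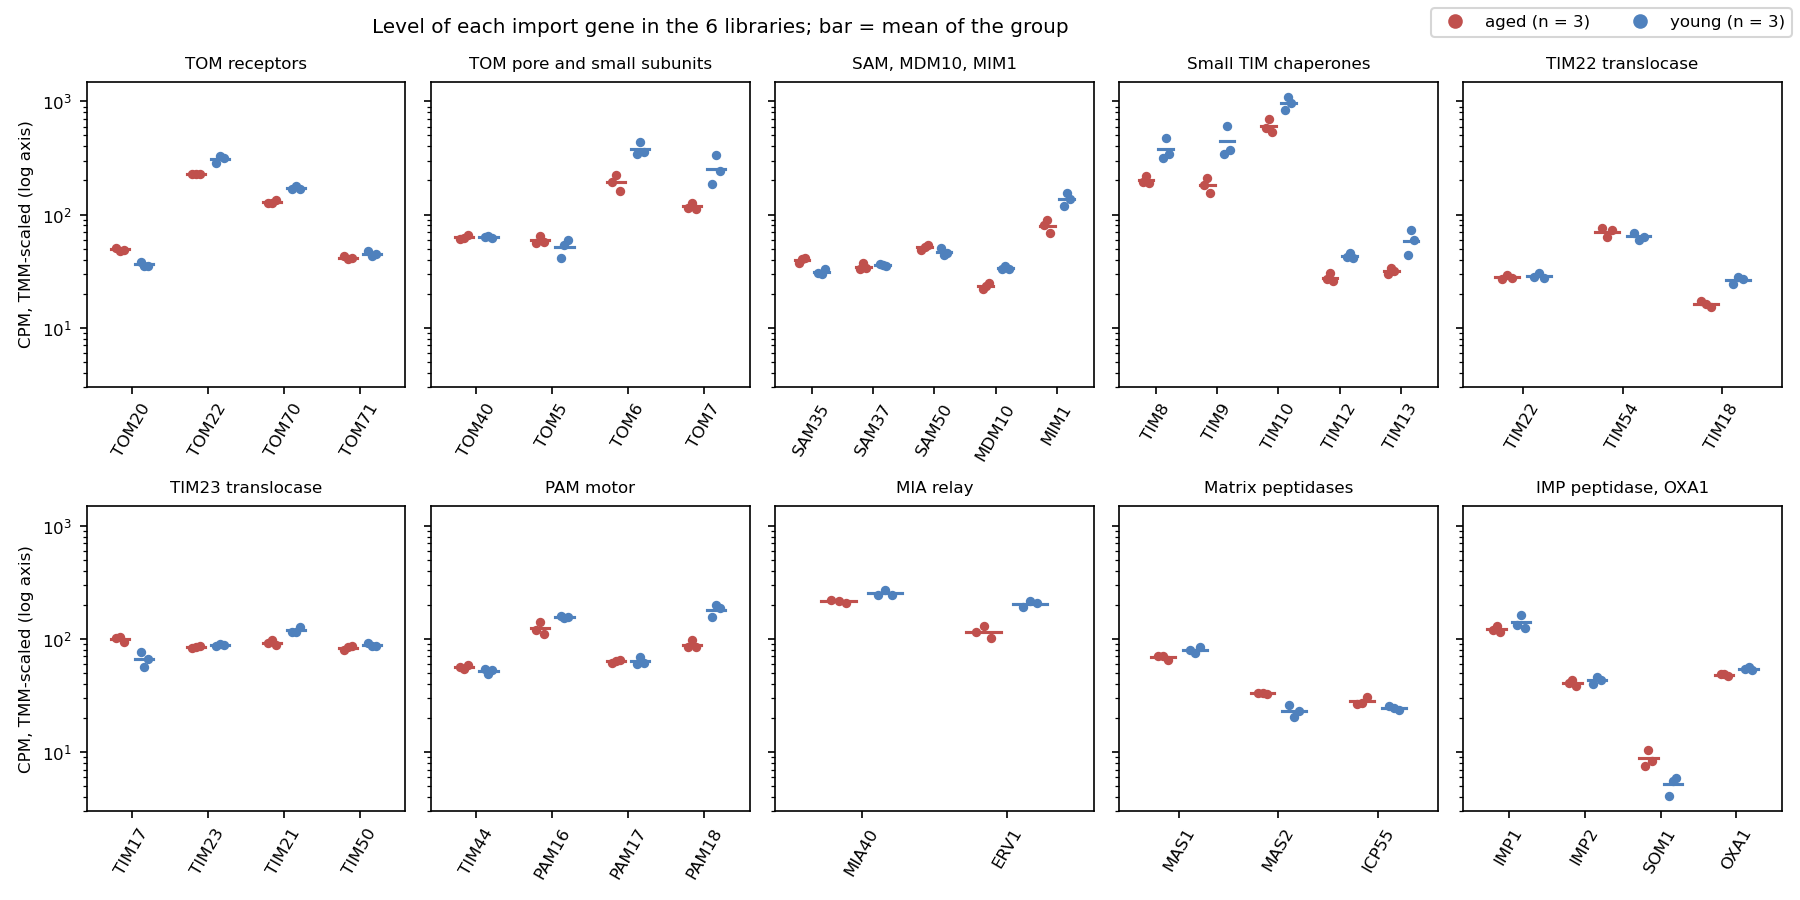
Level of each of the 38 import genes in the 6 libraries, in TMM-scaled CPM on a log axis, grouped by complex, with aged libraries (red) left of young libraries (blue) and a bar at each group's mean of 3. The small TIM chaperones all sit lower in aged libraries, while TOM40, TIM22 and PAM17 overlap between the groups.

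The receptors of the TOM complex moved in different directions. TOM20 (YGR082W, chrVII:644044-644595), whose product recognizes presequences, had 50.4, 47.9 and 49.04 CPM in aged cells, against 38.2, 35.4 and 35.1 CPM in young cells. The groups did not overlap, and TOM20 rose by 0.44 on the log2 scale (SE 0.07, edgeR adjusted p = 0.000323), and by 0.22 with an offset on GC content (edgeR adjusted p = 0.0172). TOM70, which encodes the receptor for carrier precursors and a docking site for cytosolic chaperones, averaged 128.9 ± 5.63 CPM in aged cells and 172.7 ± 5.55 CPM in young cells (SD, n = 3 each; log2 fold change −0.42, edgeR adjusted p = 0.000549, 0.095 with total counts only). TOM22, which encodes the central receptor that also holds the complex together, averaged 227.9 ± 1.51 CPM in aged cells and 311.2 ± 21.0 CPM in young cells (log2 fold change −0.45, edgeR adjusted p = 0.000678, 0.068 with total counts only). TOM71, the paralog of TOM70, was not past the threshold at −0.13 (95% confidence interval −0.28 to 0.030, edgeR adjusted p = 0.140), although each aged library lay below each young one. With offsets on GC content and on coding length it was past it as lower, at −0.29 and −0.28.

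The pore gene TOM40 had 62.8 ± 3.11 CPM in aged cells and 63.2 ± 1.40 CPM in young cells, with a log2 fold change of −0.011 (95% confidence interval −0.16 to 0.14, edgeR adjusted p = 0.898). It was past the threshold at −0.19 with an offset on GC content and at −0.17 with an offset on coding length (edgeR adjusted p = 0.0357 and 0.0367), and at 0.50 with total counts only. The small subunits around the pore differed among themselves. TOM6 (YOR045W, chrXV:413852-414037), which promotes assembly of the complex, had 195.1, 224.7 and 161.7 CPM in aged cells, against 341.5, 437.1 and 355.0 CPM in young cells. It fell by 0.96 on the log2 scale (SE 0.13, edgeR adjusted p = 0.000144). TOM7 (YNL070W, chrXIV:493366-493548), whose product acts on the dynamics of the complex, had 114.2, 126.8 and 112.9 CPM in aged cells, against 187.4, 332.8 and 244.4 CPM in young cells. The young libraries of TOM7 were far apart, yet all stood above the aged ones (log2 fold change −1.11, SE 0.17, edgeR adjusted p = 0.000274). TOM5, which encodes the smallest of these subunits, had 59.1 ± 5.16 CPM in aged cells and 51.6 ± 9.10 CPM in young cells and overlapping libraries (log2 fold change 0.19, edgeR adjusted p = 0.179). With the replicate number as a block, TOM5 was past the threshold at 0.20 (edgeR adjusted p = 0.0389). It was past it at 0.49 with an offset on coding length as well (edgeR adjusted p = 0.000758), and at −0.019 with an offset on GC content it was not.

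Of 5 genes for sorting and insertion in the outer membrane, 1 was higher and 2 were lower in aged cells. MIM1 (YOL026C, chrXV:274012-274353), needed for insertion of alpha-helical outer membrane proteins, had 80.4, 89.5 and 68.5 CPM in aged cells, against 119.2, 155.9 and 136.5 CPM in young cells (log2 fold change −0.79, SE 0.12, edgeR adjusted p = 0.000241). MDM10 (YAL010C, chrI:134184-135665), whose product works both in the SAM complex and in the tether to the endoplasmic reticulum, had 22.2, 23.3 and 24.8 CPM in aged cells, against 33.2, 35.3 and 33.1 CPM in young cells (log2 fold change −0.53, SE 0.08, edgeR adjusted p = 0.000177). Neither gene had overlapping groups, but with total counts only MDM10 was at −0.015 and its call was lost (edgeR adjusted p = 0.899). SAM35, which encodes the subunit that reads the beta-signal, averaged 39.5 ± 1.77 CPM in aged cells and 31.2 ± 1.68 CPM in young cells (log2 fold change 0.34, edgeR adjusted p = 0.00248, but 0.217 with an offset on GC content). The barrel gene SAM50 and the peripheral subunit gene SAM37 were at 0.14 and −0.056 (edgeR adjusted p = 0.135 and 0.529).

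All 5 genes of the small TIM chaperones fell. These proteins form hexamers of Tim9p with Tim10p, which escort carriers, and of Tim8p with Tim13p, while Tim12p ties the hexamer of Tim9p and Tim10p to the TIM22 complex. Together they held 1046 ± 128 CPM in aged cells and 1893 ± 369 CPM in young cells (SD, n = 3 each). TIM9 (YEL020W-A, chrV:117211-117474) had 181.2, 211.1 and 154.7 CPM in aged cells, against 341.5, 610.2 and 375.6 CPM in young cells. It showed the lowest log2 fold change of the 38 genes, −1.28 (SE 0.20, edgeR adjusted p = 0.000330), which was −0.98 without young replicate 2, the highest library.

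TIM10 (YHR005C-A, chrVIII:115620-115901), the most abundant import transcript, had 576.9, 695.3 and 536.8 CPM in aged cells, against 844.3, 1100 and 969.0 CPM in young cells (log2 fold change −0.69, SE 0.13, edgeR adjusted p = 0.000856). TIM8 (YJR135W-A, chrX:676971-677234) had 195.8, 218.3 and 190.5 CPM in aged cells, against 315.2, 474.0 and 344.5 CPM in young cells (log2 fold change −0.91, SE 0.14, edgeR adjusted p = 0.000296). TIM13 (YGR181W, chrVII:858287-858604) had 29.95, 33.8 and 31.5 CPM in aged cells, against 43.95, 73.4 and 59.3 CPM in young cells (log2 fold change −0.89, SE 0.15, edgeR adjusted p = 0.000530). For each of these genes young replicate 2 was the highest library and the groups did not overlap. TIM12 (YBR091C, chrII:427155-427484) had 27.1, 30.2 and 25.7 CPM in aged cells, against 42.1, 45.7 and 41.1 CPM in young cells (log2 fold change −0.64, SE 0.08, edgeR adjusted p = 0.000101). With total counts only, TIM10 and TIM12 were still below 0 but not past the threshold (edgeR adjusted p = 0.132 and 0.262), and with an offset on coding length they kept their calls at −0.43 and −0.40.

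In the TIM22 carrier translocase, the accessory subunit gene TIM18 moved apart from the rest. TIM18 (YOR297C, chrXV:874743-875321) had 17.1, 16.3 and 15.1 CPM in aged cells, against 24.2, 28.2 and 26.7 CPM in young cells, with no overlap (log2 fold change −0.71, SE 0.09, edgeR adjusted p = 8.38e-05, but 0.112 with total counts only, and a log2 fold change of −0.47 with an offset on GC content). The channel gene TIM22 was at −0.032 and the gene of the large subunit, TIM54, at 0.13 (edgeR adjusted p = 0.730 and 0.215). TIM22 was past the threshold at −0.24 with an offset on GC content and at 0.48 with total counts only (edgeR adjusted p = 0.0160 and 0.000569).

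Of the 4 genes chosen from the TIM23 presequence translocase, 1 rose, 1 fell and 2 were not past the threshold. TIM17 (YJL143W, chrX:147101-147577), which with Tim23p forms the membrane core, had 101.0, 103.0 and 93.5 CPM in aged cells, against 77.3, 56.1 and 66.3 CPM in young cells. TIM17 rose by 0.57 on the log2 scale (SE 0.11, edgeR adjusted p = 0.000902, but 0.0535 with an offset on GC content). TIM21, whose product contacts both the TOM complex and the respiratory chain, averaged 92.9 ± 4.90 CPM in aged cells and 120.1 ± 7.43 CPM in young cells (log2 fold change −0.37, edgeR adjusted p = 0.00164, 0.14 with total counts only). TIM23 was at −0.063 (95% confidence interval −0.20 to 0.078, edgeR adjusted p = 0.406), and was past the threshold at −0.42 with an offset on GC content and at 0.45 with total counts only (edgeR adjusted p = 0.000268 and 0.000726). TIM50 (YPL063W, chrXVI:429939-431369), the carrier of the reporter tag, had 80.1, 84.0 and 86.2 CPM in aged cells, against 91.2, 86.9 and 87.5 CPM in young cells. The aged libraries of TIM50 all lay just below the young ones, and the difference was not past the threshold (log2 fold change −0.085, edgeR adjusted p = 0.276). It was past it on opposite sides under other settings, at 0.43 with total counts only and at −0.27 with an offset on coding length (edgeR adjusted p = 0.00218 and 0.00180).

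Among the motor genes chosen here, PAM18 stood apart. Its product is the J-protein that stimulates the motor's Hsp70, and Pam16p is the J-like partner that holds it in check. PAM18 (YLR008C, chrXII:165577-166083) had 85.6, 97.0 and 84.5 CPM in aged cells, against 155.9, 198.0 and 187.3 CPM in young cells. It fell by 1.02 on the log2 scale (SE 0.10, edgeR adjusted p = 2.18e-05), the lowest p-value among the 38 import genes. PAM16 averaged 124.1 ± 15.005 CPM in aged cells and 156.4 ± 1.94 CPM in young cells (log2 fold change −0.33, edgeR adjusted p = 0.00840, 0.17 with total counts only). Its call was lost with an offset on coding length, at −0.16 (edgeR adjusted p = 0.0792). TIM44, which encodes the membrane anchor of the motor, and PAM17 were at 0.12 and 0.0079 (edgeR adjusted p = 0.150 and 0.934). TIM44 was past the threshold as lower with an offset on GC content, at −0.19 (edgeR adjusted p = 0.0388).

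Both relay genes fell, and ERV1 fell further. ERV1 (YGR029W, chrVII:543553-544205, 2 coding exons) encodes the sulfhydryl oxidase that renews Mia40p. It had 114.6, 129.0 and 102.9 CPM in aged cells, against 193.6, 214.6 and 207.6 CPM in young cells (log2 fold change −0.83, SE 0.09, edgeR adjusted p = 4.35e-05). MIA40, which encodes the receptor and oxidoreductase, averaged 214.4 ± 7.27 CPM in aged cells and 253.6 ± 16.7 CPM in young cells (log2 fold change −0.24, edgeR adjusted p = 0.0212). Total counts only put MIA40 past the threshold as higher, at 0.27 (edgeR adjusted p = 0.0137). The lower call of MIA40 was lost without aged replicate 1, aged replicate 3 or young replicate 2 (edgeR adjusted p = 0.0631, 0.0822 and 0.0551). It was also lost with upper-quartile scaling (edgeR adjusted p = 0.0670).

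The subunits of the matrix processing peptidase moved in opposite directions. MAS2 (YHR024C, chrVIII:157744-159192), which encodes the presequence-binding alpha subunit, had 33.2, 33.6 and 32.6 CPM in aged cells, against 26.1, 20.5 and 23.0 CPM in young cells. It rose by 0.51 on the log2 scale (SE 0.09, edgeR adjusted p = 0.000721), and by 0.31 with an offset on GC content (edgeR adjusted p = 0.0103). MAS1, which encodes the catalytic beta subunit, averaged 68.8 ± 3.56 CPM in aged cells and 80.2 ± 4.72 CPM in young cells (log2 fold change −0.22, edgeR adjusted p = 0.0226). Total counts only put MAS1 past the threshold as higher, at 0.29 (edgeR adjusted p = 0.0257). Its lower call was lost without aged replicate 3 or young replicate 3 (edgeR adjusted p = 0.101 and 0.0873). ICP55, which encodes a peptidase that trims the new N-terminus, was at 0.21 (edgeR adjusted p = 0.0486), a call lost without each library except young replicate 1 (edgeR adjusted p between 0.0532 and 0.219). Its value was 0.14 without aged replicate 3 and 0.019 with an offset on coding length (edgeR adjusted p = 0.849). The call of ICP55 was also lost with the Wald test of DESeq2 (DESeq2 adjusted p = 0.0941) and with limma-voom (limma adjusted p = 0.0522). An offset on GC content removed it as well (edgeR adjusted p = 0.131).

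In the inner membrane peptidase, the catalytic subunit genes IMP1 and IMP2 were at −0.21 and −0.076 (edgeR adjusted p = 0.101 and 0.411), and the replicate block put IMP1 past the threshold at −0.20 (edgeR adjusted p = 0.0194). An offset on GC content put both past it as lower, at −0.38 for IMP1 and −0.29 for IMP2. SOM1 (YEL059C-A, chrV:42400-42624), which encodes their accessory subunit, was the scarcest of the 38 import transcripts in CPM, with 7.49, 10.5 and 8.34 CPM in aged cells, against 4.11, 5.59 and 5.89 CPM in young cells. SOM1 rose by 0.76 on the log2 scale (SE 0.17, edgeR adjusted p = 0.00308, but 0.0661 with an offset on GC content). OXA1, which encodes the insertase for proteins that enter the inner membrane from the matrix, averaged 48.4 ± 0.825 CPM in aged cells and 54.4 ± 1.85 CPM in young cells (log2 fold change −0.17, edgeR adjusted p = 0.0400). Total counts only put OXA1 past the threshold as higher, at 0.34 (edgeR adjusted p = 0.00504). Its lower call was lost without each library except young replicate 1 (edgeR adjusted p between 0.0586 and 0.128).

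**Figure D2:**
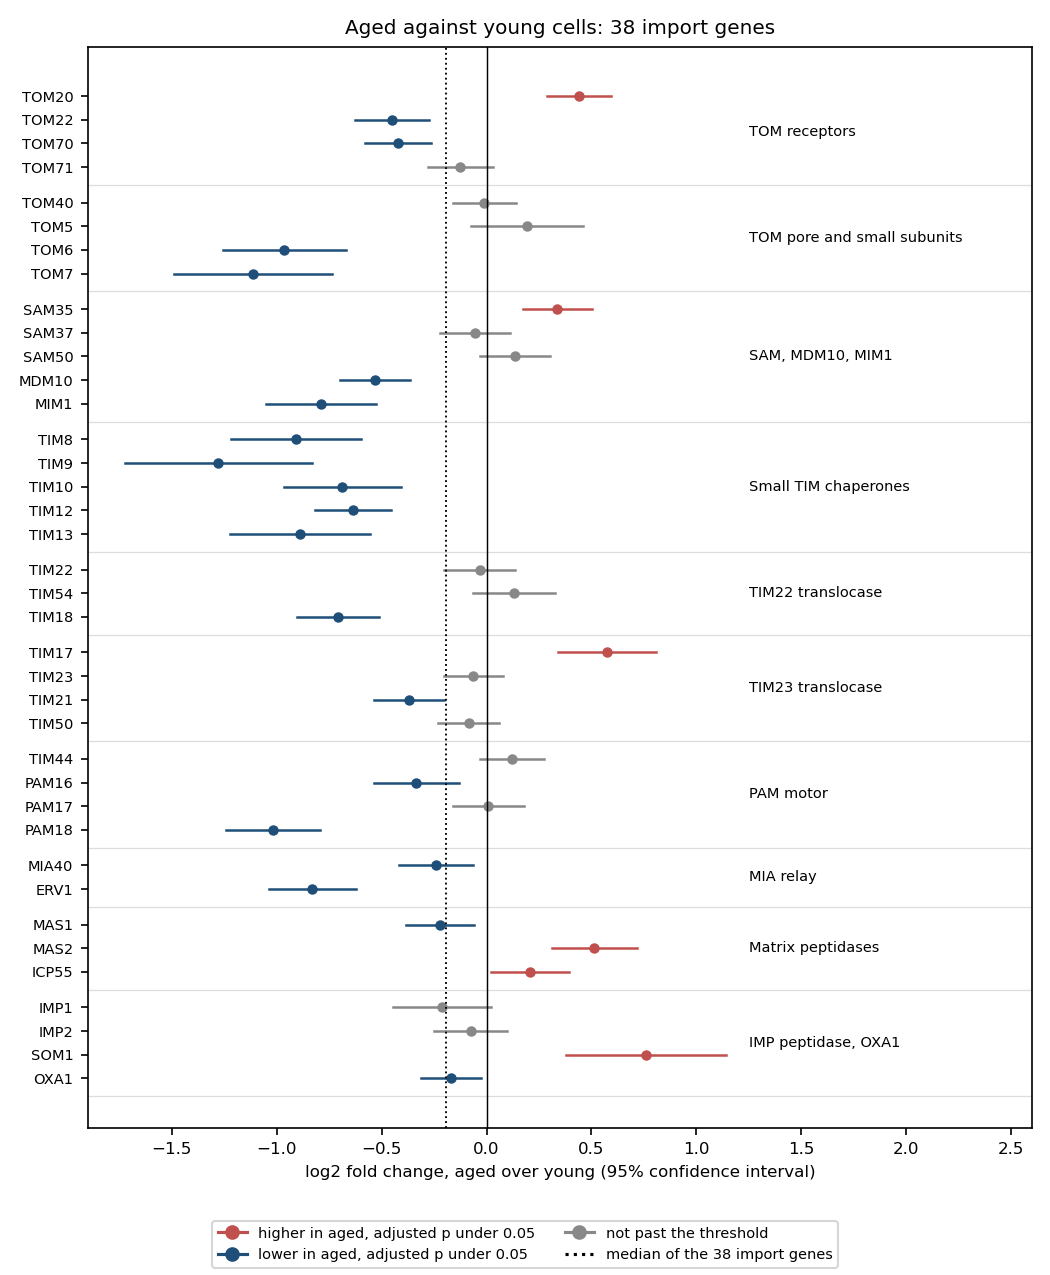
Log2 fold change, aged over young, of the 38 import genes with its 95% confidence interval from edgeR, ordered by complex from the outer membrane inward. All 5 small TIM genes lie left of −0.6, and the 6 higher genes (red) are TOM20, SAM35, TIM17, MAS2, ICP55 and SOM1; with total counts only each value would sit 0.50 to 0.53 further right.

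Levels per kilobase of coding length allow genes to be set beside each other. TIM10 was highest at 2138 ± 292 CPM per kb in aged cells and 3444 ± 453 CPM per kb in young cells. In aged cells TOM6 followed with 1042 ± 169 CPM per kb, then TIM8 with 763.3 ± 55.9, TIM9 with 690.6 ± 107 and TOM7 with 644.5 ± 41.8 CPM per kb, where the libraries of TIM9 overlapped those of TIM8 and TOM7 and each library of TIM8 lay above each of TOM7. In young cells the same 4 genes had 2031 ± 278, 1431 ± 320, 1676 ± 554 and 1393 ± 400.4 CPM per kb. The pore gene TOM40 stood at 53.9 CPM per kb in aged cells and 54.3 CPM per kb in young cells. Of the 38 genes, MDM10 was lowest in aged cells with 15.8 ± 0.889 CPM per kb, against 22.9 ± 0.842 CPM per kb in young cells. Coding lengths leave out untranslated ends, and the annotation used for counting is not given. If the counted features held such ends, values per coding length run high for the shortest genes.

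Ratios between partner genes within a library do not depend on how libraries were scaled, and 18 pairs were compared. For 13 of them the aged and young libraries did not overlap (exact two-sided permutation test, p = 0.1, which is as low as 3 against 3 libraries can go, and 0.138 after Benjamini-Hochberg adjustment over the 18 pairs). None could therefore pass a threshold of 0.05. Of all single features, 70.1% did not overlap between the groups, and the share for ratios of other genes was not computed. MAS1 counts were 2.14, 2.10 and 1.98 times those of MAS2 in aged libraries, against 3.06, 3.68 and 3.69 times in young libraries. TOM20 counts were 0.400, 0.382 and 0.362 times those of TOM70 in aged libraries, against 0.226, 0.197 and 0.207 times in young libraries. TIM17 counts exceeded those of TIM23 in aged libraries, at 1.22, 1.202 and 1.09 times, and were below them in young libraries, at 0.893, 0.619 and 0.752 times.

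In the motor, PAM16 counts were 1.42, 1.45 and 1.31 times those of PAM18 in aged libraries, against 1.01, 0.779 and 0.838 times in young libraries. In the relay, ERV1 counts were 0.524, 0.591 and 0.4997 times those of MIA40 in aged libraries, against 0.790, 0.787 and 0.855 times in young libraries. These ratios were separate between the groups in each case. TOM6 relative to TOM40 was lower in aged libraries by a mean log2 difference of −0.95, TIM9 relative to TIM10 by −0.55 and TOM22 relative to TOM40 by −0.44. The ratio of TIM8 to TIM13, partners in a hexamer, differed by −0.025 on the log2 scale with overlapping libraries (two-sided exact permutation test, p = 0.9), and that of TIM12 to TIM10 by 0.050 (p = 0.7 by the same exact test). The ratios of IMP1 to IMP2, PAM17 to TIM44 and TIM54 to TIM22 overlapped as well.

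**Figure D3:**
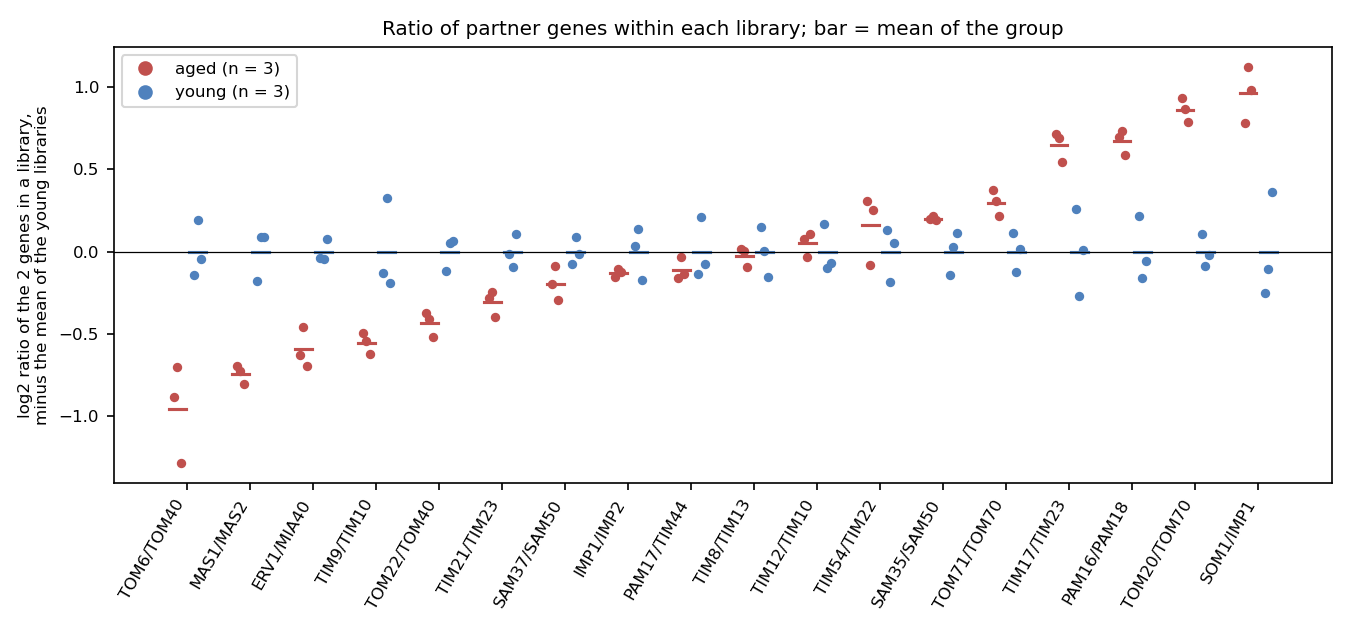
Log2 ratio of 18 pairs of partner genes in each library, with the mean of the 3 young libraries set to 0, ordered by the difference between aged (red, left) and young (blue, right) libraries; bars are means of 3. Groups are apart at both ends, such as TOM6/TOM40 and MAS1/MAS2 on the left and SOM1/IMP1 and TOM20/TOM70 on the right, and overlap for TIM8/TIM13 and TIM12/TIM10 in the middle.

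Change went along with coding length and level among the import genes, as it did over all genes. Of the 10 import genes under 400 coding bases, 8 were lower, 1 was higher and TOM5 was not past the threshold, against 49.7% lower and 16.5% higher of 620 tested features of that length. Of the 28 longer import genes, 11 were lower and 5 were higher. Over tested features of all lengths, 30.8% were lower and 32.7% were higher. The shares for features of 400 or more coding bases were not computed. The median log2 fold change was −0.84 for the short and −0.080 for the longer import genes, against −0.33 and 0.059 for all tested features of these lengths. Across the 38 genes, Spearman's rho of the log2 fold change was 0.40 with coding length and −0.59 with mean level, against 0.23 and −0.35 across 5913 tested features with a coding length. Genes are not replicates, all points share the same 6 libraries, and level enters the fold change itself, so these are descriptions. The part of length in the falls was not tested. With an offset on coding length 21 import genes were lower and 6 higher, PAM16 and ICP55 lost their calls, and the short genes TIM9, TIM8, TOM6 and TOM7 kept theirs with smaller values of −0.99, −0.62, −0.67 and −0.80.

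**Figure D4:**
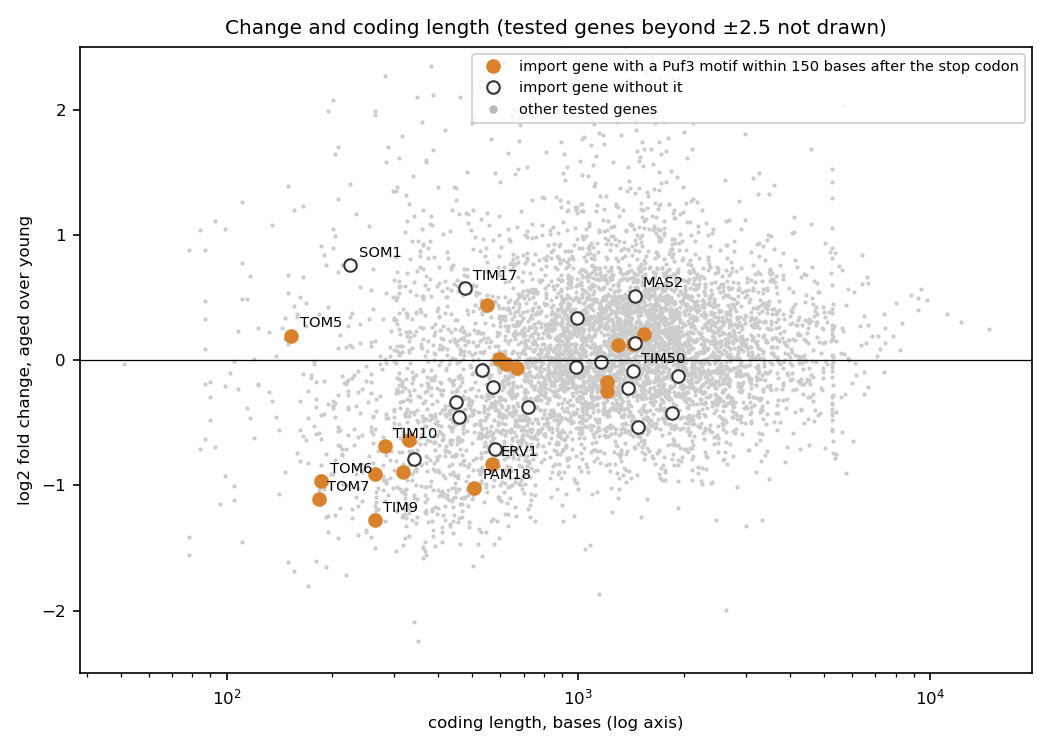
Log2 fold change, aged over young, against coding length on a log axis for tested features (grey) and import genes, filled where the Puf3 motif stands within 150 bases after the stop codon and open where it does not. Short import genes sit low, with TOM5 and SOM1 as exceptions above 0, and filled points lie both among the lowest and near 0.

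Of the 19 import genes with TGTANATA, 11 (57.9%) were lower and 2 were higher in aged cells, with a median log2 fold change of −0.24. Of the 19 without it, 8 (42.1%) were lower and 4 were higher, with a median of −0.13. Over all coding genes tested, 36.9% of 751 with the letters and 29.5% of 5162 without them were lower, with medians of −0.050 and 0.050. Higher were 193 of the 751 and 1804 of the 5162. Import genes with the letters were also shorter, with a median coding length of 552 bases against 984 bases for those without. Genes with a match fell (TIM9, PAM18), rose (TOM20) or were not past the threshold (TIM22, TIM23, TIM44, TIM54, PAM17, TOM5). Binding by Puf3p was not measured.

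In the 300 bases around each start codon (250 before and 50 after), 8 promoter motifs were searched on both strands, each on its own, so that matches may overlap. CCAAT, the box of the Hap complex, stood in 47.4% of import genes and 43.2% of all 6008 coding genes. AGGGG, the stress response element, stood in 15.8% and 21.6%, GATGAG (PAC) in 15.8% and 20.3%, and AAAATTTT (RRPE) in 2.63% and 8.99%. GAANNTTC (heat shock element) stood in 13.2% and 11.8%, TTACCCG (Reb1p) in 5.26% and 7.07%, GGTGGCAAA (Rpn4p) in 0 of 38 and 1.18%, and the Abf1p motif (TCA and ACG parted by any 5 bases) in 15.8% and 8.66%.

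A list of 17 further genes of protein import that are not subunits named above was read from the same fit. Of these, 9 were lower and 4 were higher in aged cells, against 30.8% and 32.7% of all features, with a median log2 fold change of −0.25. MIM2, the partner of MIM1 in outer membrane insertion, had 23.9, 32.0 and 22.9 CPM in aged cells, against 49.1, 65.7 and 61.6 CPM in young cells (log2 fold change −1.16, SE 0.14, edgeR adjusted p = 6.48e-05). Its libraries did not overlap, as for MIM1. MGR2, which encodes a small subunit of the TIM23 complex, fell by 0.88 on the log2 scale, OCT1, which encodes the matrix octapeptidyl peptidase, by 0.77, MGE1, which encodes the nucleotide exchange factor of the motor's Hsp70, by 0.65, and MBA1, which encodes a ribosome receptor for insertion beside Oxa1p, by 0.62 (edgeR adjusted p between 6.64e-06 and 0.000131). SSC1, which encodes that Hsp70, averaged 365.9 CPM in aged cells and 445.0 CPM in young cells (log2 fold change −0.28, edgeR adjusted p = 0.0118). MDJ2, a scarce paralog of PAM18 at 4.01 CPM in aged cells and 2.37 CPM in young cells, rose by 0.76 on the log2 scale (edgeR adjusted p = 0.00287). The counts of the list depended on single libraries, with 5 lower without aged replicate 1 and 2 higher without aged replicate 2, aged replicate 3 or young replicate 3.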

How the data were processed

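The file deposited by the authors holds estimated counts for each feature without normalization. Per the labels, the submitters' processing notes name bcl2fastq, cutadapt 2.6, STAR 2.7.6a, featureCounts (Subread 1.6.2) and build R64. Strand setting and annotation are not given in the sources used here. Between 54.3% and 59.5% of values per library are not whole, as where reads shared by features are divided. Columns were matched to samples by library name, and 0 columns had no sample. Counts were rounded, filtered with filterByExpr (minimum count 10), scaled by TMM and tested with edgeR 4.0.16 (R 4.3.3, glmQLFit, glmQLFTest, group as the only term). The recovery of changes by this test was checked on simulated counts in which few features changed, as many up as down. That check could not test the choice of scaling. SEs were derived from the F statistic. The study used DESeq2, run here (1.42.0) as an alternative beside limma 3.58.1. No molecular identifiers were used, so depth bounds counting error only. The 38 members matched R64 RefSeq genes by identifier, as did 84.8% of features, and none overlaps another RefSeq gene. OCT1, whose symbol the table gives as a date, was matched by identifier. Pair ratios used counts plus 0.5.

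Replicate numbers pair the samples because the labels give them as batches. Deviations from group means correlated at 0.26, 0.53 and 0.24 in batches 1, 2 and 3 (features of at least 10 CPM), and at −0.47 to 0.32 between other numbers, where aged replicate 3 with young replicate 1 (0.32) exceeded batches 1 and 3. The block is an alternative, since the study's methods state none. Every import gene is named. Per-library values are given for the gene with the lowest p-value in each complex, for changed genes of at least 0.5 on the log2 scale and for TIM50. The members, lists and tests were chosen with earlier results of these data known, and the motif searches and the 400-base limit after the values were seen. Proteins are not shown here.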

Additional observations from a re-analysis of the deposited data

How the results depend on the processing

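The count of changed features stayed within 1.5 times of 4288 in each alternative run (3307 to 5201), as did the 19 lower import genes except with total counts only (8 lower, 22 higher). The 6 higher import genes were 2 with the offset on GC content (TOM20 and MAS2) and 4 when the replicate block was added to it. The replicate block alone gave 20 lower and 7 higher import genes and changed no call other than those of TOM5 and IMP1. The median of the import genes, −0.19, was −0.13 with upper-quartile scaling, 0.33 with total counts only (−0.21 relative to all genes), −0.27 with the offset on coding length, with or without the block, and −0.34 with the offset on GC content, with or without the block. Leaving out each library gave medians from −0.21 to −0.15, 16 to 19 lower and 5 to 7 higher import genes. SAM50 was past the threshold as higher without young replicate 1 (0.18, edgeR adjusted p = 0.0450) and with upper-quartile scaling (0.20, edgeR adjusted p = 0.0474). With upper-quartile scaling MIA40, MAS1 and OXA1 lost their calls (edgeR adjusted p = 0.0670, 0.0896 and 0.198). The 17 other import genes gave 3 lower and 10 higher with total counts only, 1 higher with the offset on GC content, with or without the block, 5 lower and 2 higher at an adjusted p under 0.01, and 5 to 10 lower and 2 to 4 higher without single libraries.

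With total counts only, values turned positive for TOM22 (0.068), TOM70 (0.095), TOM71 (0.39), TOM40 (0.50), SAM37 (0.46), TIM22 (0.48), TIM23 (0.45), TIM21 (0.14), TIM50 (0.43), PAM16 (0.17), MIA40 (0.27), MAS1 (0.29), IMP1 (0.31), IMP2 (0.44) and OXA1 (0.34), while TIM44 was −0.19 with the offset on GC content, with or without the block. The offset on GC content made 26 import genes lower, adding TOM71, TOM40, TIM22, TIM23, TIM44, IMP1 and IMP2. Total counts only put TOM5, SAM50, TIM54, TIM44 and PAM17 past the threshold as higher. It did the same for the genes named above as turning positive, except TOM22, TOM70, TIM21 and PAM16, which were not past it. Total counts only and the block aside, some called values kept their call and moved by over 1.5 times. With the offset on GC content these were MIA40 (−0.41) and OXA1 (−0.48) beside TOM20, MAS2 and TIM18. With the offset on coding length they were TOM22 (−0.27), SAM35 (0.22), MIA40 (−0.42), MAS1 (−0.41), MAS2 (0.33) and OXA1 (−0.34) beside TIM10 and TIM12. The shift with total counts follows from the scaling itself, and the cause of the GC dependence was not tested. Of 684 values of single genes, 603 kept their side of the threshold. Uncalled values among these could change sign, as for TOM40 with upper-quartile scaling (0.056). Of the rest, 35 lost the call, 29 gained one and 17 changed sign with a call before or after. In every alternative 10 genes kept both call and sign. Of the 144 alternative values of pair ratios, 0 moved by more than the spread between replicates. For most of these values that outcome was fixed in advance. The block leaves the mean difference of a ratio unchanged, and leaving out a single library cannot shift it by that spread. Only adding 10 counts in place of 0.5 could have moved a ratio. A window of 250 bases, chosen after seeing the data, put TGTANATA after 63.2% of import genes and 15.1% of all coding genes.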
